A study of Mus musculus with 6 samples.

Results

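The nuclear genes of the mitochondrial respiratory chain were compared between Dnmt1+/+ and Dnmt1-/- mouse embryonic fibroblasts (MEFs). Members were chosen by name from the platform annotation: every symbol that begins with Nduf, Uqcr or Atp5, the genes Sdha to Sdhd, and the Cox genes of subunits 4 to 8 with an isoform suffix, leaving out Cox assembly factors. They came to 87 genes read by 135 probes, of 19057 genes and 45281 probes on the array. Complex I held 44 of the genes, among them 8 assembly factors and 1 pseudogene, complex II held 4, complex III held 7, and complexes IV and V held 16 each. Total RNA was measured on single-colour Illumina BeadChips with 3 arrays per genotype. Dnmt1 encodes the methyltransferase that copies DNA methylation onto newly made strands, and the question of the series was how expression differs when this methylation is lost. The Dnmt1-/- cells carry a partly functional (hypomorphic) Dnmt1 allele in homozygous form, cells of both groups are also Trp53-/-, and the strain background is given as unknown. Only 1 cell line per genotype is described in the sources, and an effect of the line cannot be told apart from one of the genotype. Nothing in the labels says that the 3 arrays of a group came from separate cultures, and a p-value here reflects only how these samples vary, possibly for technical reasons.

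The respiratory chain sits in the inner mitochondrial membrane. Complex I takes electrons from NADH and complex II from succinate, ubiquinone carries them to complex III, cytochrome c carries them on to complex IV, where oxygen is reduced, and complex V (ATP synthase) uses the proton gradient to make ATP. Most subunits are encoded in the nucleus and a few in the mitochondrial genome, and several subunits of complex IV exist as general and as tissue-restricted isoforms. Many nuclear genes of the chain have CpG-rich promoters with sites for NRF1 and for GABP, an ETS family factor.

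Mean raw intensity was 326 to 357 on the Dnmt1+/+ arrays and 397, 259 and 217 on Dnmt1-/- replicates 1, 2 and 3. Values are given as normalized log2 intensity, and a difference is Dnmt1-/- minus Dnmt1+/+. The Dnmt1 probe itself measured 9.65 ± 0.20 in Dnmt1+/+ and 7.55 ± 0.56 in Dnmt1-/- MEFs (SD, n = 3 each), 4.31-fold lower (limma adjusted p = 0.0017), and its position relative to the altered part of the allele is not given in the sources used here. All 11 fibroblast markers were above background, although Thy1 was so on 0 of 3 Dnmt1-/- arrays. Their differences ran from -1.75 to 1.57 with a median of 0.17, 6 higher and 5 lower, and 1 rose and 1 fell past the threshold. Thy1 was tested through the Dnmt1+/+ arrays alone, so it could only count among the lower genes. Of markers of other cell types, 0 of 9 for muscle, 0 of 9 for germ cells, 0 of 5 for endothelium, 1 of 6 for epithelium and 3 of 7 for blood cells passed the filter described below. The summed level of the blood list was 7.92 to 8.28 on Dnmt1+/+ and 8.67 to 8.96 on Dnmt1-/- arrays (log2). Its 3 tested genes were all higher in Dnmt1-/- MEFs, Cd14 (0.98) and Cd53 (1.00) past the threshold and Csf1r not (0.41), while Itgam, Lyz2, Ptprc and Tyrobp were above background on no array. The lowest and the median level of the 3 were 4.82 and 4.86, close to the lowest detected signal of the arrays (4.77 to 5.07). At least 1 of these 2 calls thus came from a dim gene. The 1 tested epithelial marker, Krt19, fell by 0.96 at a mean level of 4.91, also close to that signal. A gene that passes the filter only through the arrays of 1 group can only be called higher in that group. The part of all these markers in the results was not tested. In bulk RNA, fewer cells that express a gene and less of its RNA per cell cannot be told apart.

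A probe was tested where its detection p was under 0.01 on at least 3 of the 6 arrays, and a gene was read by its brightest tested probe. This left 74 of the 87 members, 71 of them above background on all 6 arrays. They comprised 41 of complex I, 3 of complex II, 6 of complex III, 9 of complex IV and 15 of complex V. Calls of a rise or a fall required a limma adjusted p (Benjamini-Hochberg over the 8716 genes tested) under 0.05.

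Of the 74 members, 0 rose and 4 fell in Dnmt1-/- MEFs: Ndufaf4 and Ndufb6 of complex I, Sdhb of complex II and Uqcrq of complex III. Over all genes tested, 9.99% rose and 8.35% fell. By probe, 7 of the 102 tested member probes fell and 0 rose, where 7.69% of all tested probes fell and 8.48% rose. At an unadjusted limma p under 0.05 there were 13 members, 9 lower and 4 higher. This is no excess, since 18.3% of all tested genes passed even the stricter adjusted cut in either direction. The groups of arrays did not overlap for 18 members that were lower and 11 that were higher, against 21.7% and 18.7% of all genes.

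**Figure D1:**
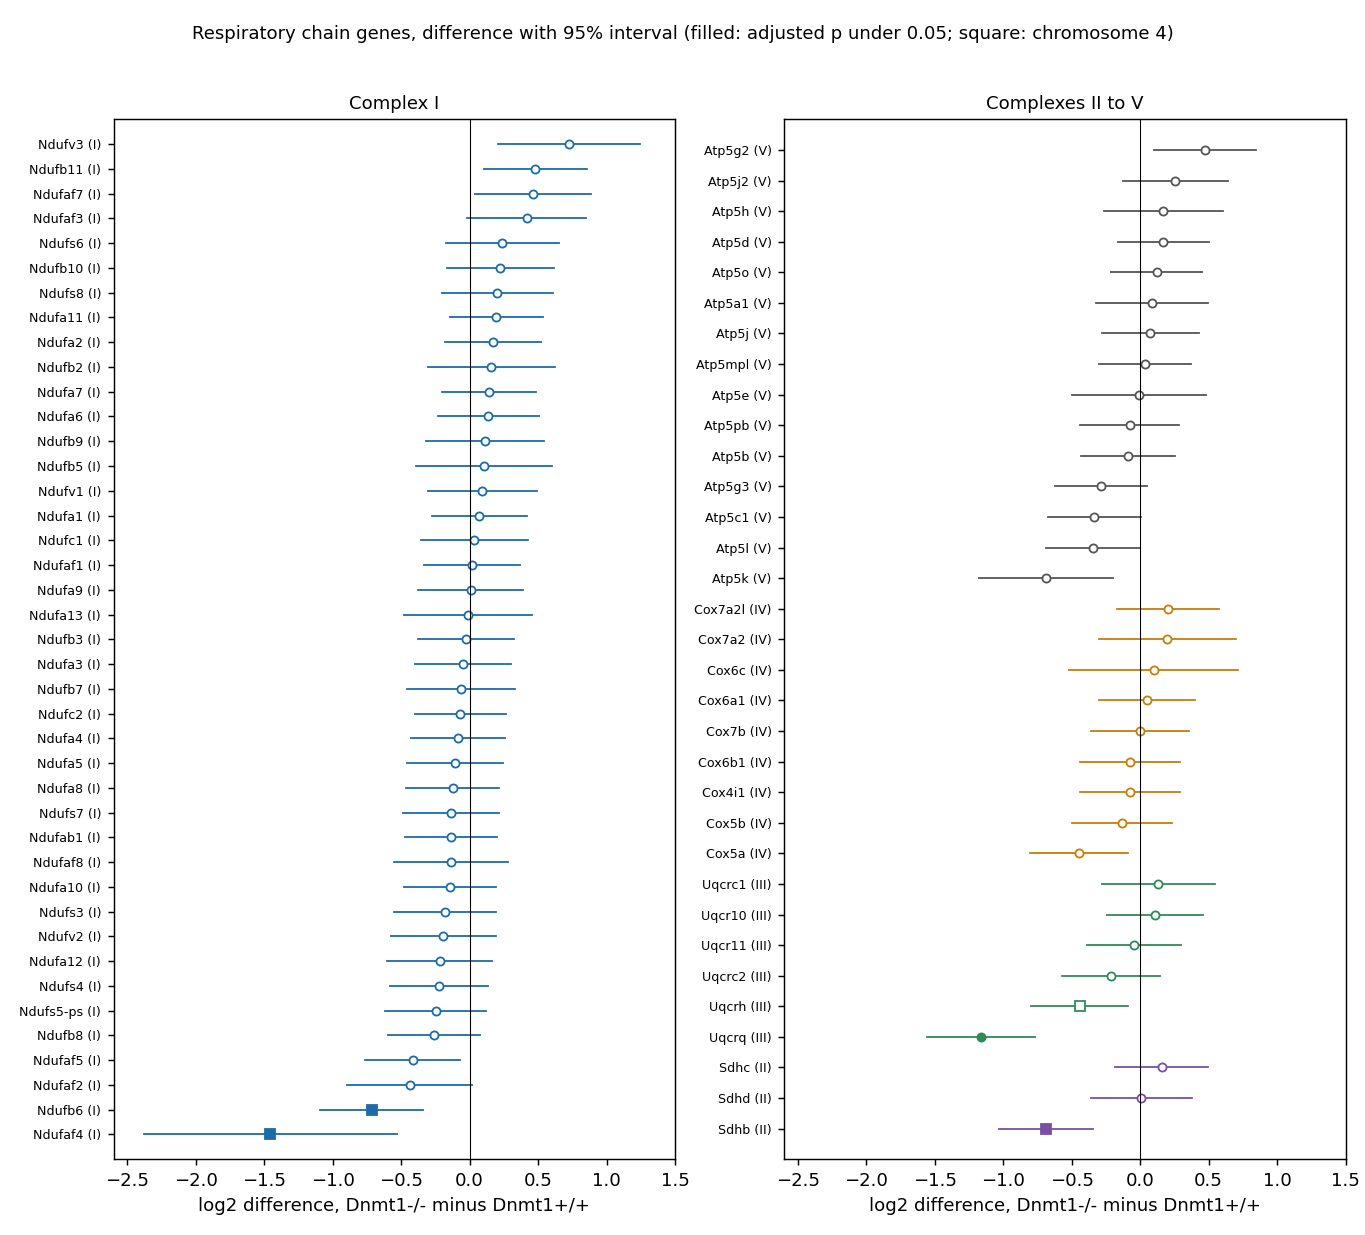
Difference of each of the 74 tested members on the log2 scale (Dnmt1-/- minus Dnmt1+/+, x axis), with complex I on the left and complexes II to V on the right, and horizontal lines for the 95% confidence interval. Filled symbols are the 4 genes that fell, squares are the 4 tested genes of chromosome 4, and most other members lie close to 0.

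Of the 4 genes that fell, 3 lie on chromosome 4, as does Uqcrh, and these 4 were the tested members of that chromosome. Their promoter windows are shown because the genes were lower together. Each is RefSeq sequence of the mouse assembly GRCm38.p6, from 250 bases before to 50 bases after the annotated start, written 5′ to 3′ on the strand of the gene: chr4:24897833-24898132 (+) for Ndufaf4, chr4:40279372-40279671 (-) for Ndufb6, chr4:116075021-116075320 (-) for Uqcrh and chr4:140961021-140961320 (+) for Sdhb. Capitals mark a match to the NRF1 site (GCGC, any 1 base, then TGCGC) or to the ETS core CCGGAAG, each searched on both strands.
Ndufaf4: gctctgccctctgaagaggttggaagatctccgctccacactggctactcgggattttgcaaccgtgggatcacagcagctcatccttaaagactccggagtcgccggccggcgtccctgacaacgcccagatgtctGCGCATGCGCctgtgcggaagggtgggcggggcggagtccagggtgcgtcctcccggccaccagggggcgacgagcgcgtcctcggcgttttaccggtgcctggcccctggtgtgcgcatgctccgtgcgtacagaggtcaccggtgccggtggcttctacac
Ndufb6: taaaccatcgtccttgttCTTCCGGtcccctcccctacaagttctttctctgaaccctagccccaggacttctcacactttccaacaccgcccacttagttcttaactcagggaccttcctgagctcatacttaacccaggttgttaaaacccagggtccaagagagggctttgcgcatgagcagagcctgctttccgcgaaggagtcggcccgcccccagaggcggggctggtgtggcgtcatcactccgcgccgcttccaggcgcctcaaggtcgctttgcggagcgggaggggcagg
Uqcrh: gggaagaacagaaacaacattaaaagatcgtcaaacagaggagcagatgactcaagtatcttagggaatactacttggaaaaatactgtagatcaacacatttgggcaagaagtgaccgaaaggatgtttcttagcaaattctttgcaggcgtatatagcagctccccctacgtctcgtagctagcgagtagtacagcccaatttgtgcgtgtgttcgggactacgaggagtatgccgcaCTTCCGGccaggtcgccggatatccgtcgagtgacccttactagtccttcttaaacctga
Sdhb: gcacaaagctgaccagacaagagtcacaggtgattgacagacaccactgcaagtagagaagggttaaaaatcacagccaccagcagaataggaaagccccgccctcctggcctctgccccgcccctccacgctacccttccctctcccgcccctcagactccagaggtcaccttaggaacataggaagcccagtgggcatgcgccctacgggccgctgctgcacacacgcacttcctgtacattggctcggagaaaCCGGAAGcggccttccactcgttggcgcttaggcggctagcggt

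Ndufaf4 held the NRF1 match, at -113 from the start, and the other 3 held an ETS match, at -232 in Ndufb6, at -10 in Uqcrh and at 7 in Sdhb (the first transcribed base counts as 1). The windows held 28, 17, 15 and 15 CpG dinucleotides in the same order. Both motifs were common in members elsewhere too. Of the 72 members with a RefSeq promoter in the table used, 23.6% had the NRF1 site and 23.6% the ETS core, against 4.78% and 9.12% of the 27025 promoters of all genes. The median number of CpG in the window was 20 in members and 7 in all promoters. Both motifs contain CpG themselves, the promoters compared were not matched for it, and its part in the motif shares was not tested. A match of letters is a description of the window, and binding was not measured.

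Ndufaf4, an assembly factor of complex I, had the largest fall among members. The probe ILMN_2734060 measured 10.27, 10.15 and 9.65 on Dnmt1+/+ replicates 1 to 3 and 7.56, 9.18 and 8.95 on Dnmt1-/- replicates 1 to 3. The groups did not overlap, and Dnmt1-/- replicate 1 lay well below the other two. The difference was -1.46 ± 0.40 (SE), 2.74-fold lower (limma adjusted p = 0.040). A second probe of Ndufaf4 differed by -1.65 ± 0.40 (SE; adjusted p = 0.026 over probes), again with the lowest value, 5.67, on Dnmt1-/- replicate 1. Without that array the difference was -0.97 (adjusted p = 0.023). Without both dimmer arrays, Dnmt1-/- replicates 2 and 3, it was -2.47, a value that rests on Dnmt1-/- replicate 1 alone. The call was lost without Dnmt1+/+ replicate 1 (adjusted p = 0.14), Dnmt1+/+ replicate 2 (0.12) or Dnmt1-/- replicate 3 (0.071), with the replicate number as a block (0.071) and with no detection filter (0.13).

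Ndufb6 is an accessory subunit of the membrane arm of complex I. Its levels were 11.59, 11.52 and 11.42 in Dnmt1+/+ and 10.90, 10.90 and 10.57 in Dnmt1-/- MEFs. Every Dnmt1-/- array was below every Dnmt1+/+ array, with a difference of -0.72 ± 0.16 (SE), 1.64-fold lower (limma adjusted p = 0.020). The second probe for this gene was lower by a similar amount, -0.55 ± 0.20 (SE), but missed the threshold (adjusted p = 0.10 over probes).

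Sdhb is the iron-sulfur subunit of complex II, which passes electrons from the flavoprotein Sdha towards ubiquinone. It measured 9.91, 9.74 and 9.74 in Dnmt1+/+ and 9.19, 9.03 and 9.11 in Dnmt1-/- MEFs. The 2 groups were each tight and stood apart by -0.69 ± 0.15 (SE), 1.61-fold (limma adjusted p = 0.017). A second probe differed by -0.83 ± 0.19 (SE; adjusted p = 0.021 over probes), and another was above background on no array. The membrane anchors of the same complex, Sdhc and Sdhd, differed by 0.16 ± 0.15 and 0.01 ± 0.16 (SE).

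Uqcrq, a small accessory subunit of complex III encoded on chromosome 11, fell with the smallest adjusted p among members. It read 8.14, 8.13 and 8.0 in Dnmt1+/+ and 6.81, 7.20 and 6.78 in Dnmt1-/- MEFs, a difference of -1.16 ± 0.17 (SE), 2.24-fold lower (limma adjusted p = 0.0031). All Dnmt1-/- arrays were lower by more than the range of either group. These values come from 1 probe, ILMN_1252263, designed on a cDNA clone, whereas the probe designed on the RefSeq transcript was above background on 0 of 6 arrays, so which transcript form was read is not settled. Of the 4 calls, that of Uqcrq alone held when any single array was left out (adjusted p at most 0.021). Its difference was smaller with the authors' processed values (-0.72) and with no background correction (-0.74), and the call held in both. Like that of Ndufaf4, the calls of Ndufb6 and Sdhb were lost without Dnmt1+/+ replicate 1 (adjusted p = 0.071 and 0.065), without Dnmt1+/+ replicate 2 (0.088 and 0.069) and without Dnmt1-/- replicate 3 (0.078 and 0.062), with the same direction each time.

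**Figure D2:**
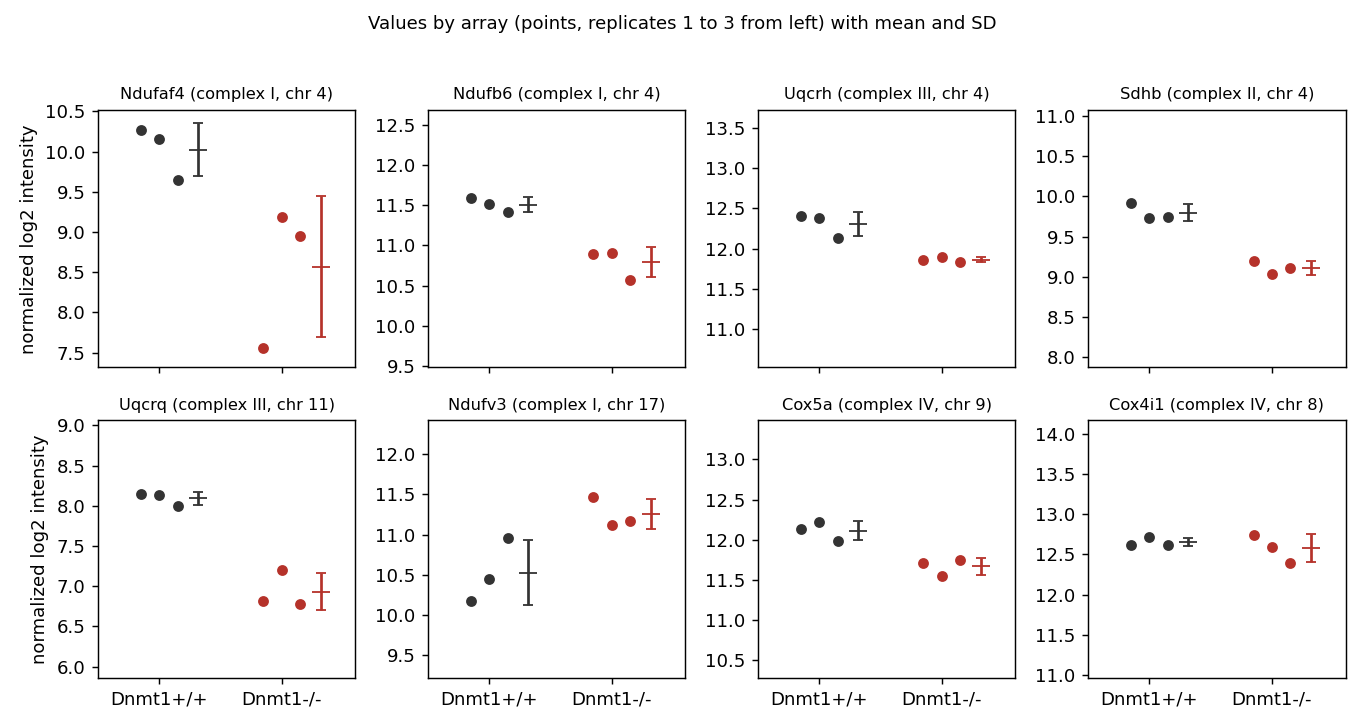
Normalized log2 intensity (y axis) of 8 members on each array, with replicates 1 to 3 from left to right as points and the mean ± SD of each group beside them and panels of equal height on the log2 scale. Ndufaf4, Ndufb6, Uqcrh, Sdhb, Uqcrq and Cox5a are lower on all Dnmt1-/- arrays, Ndufv3 is higher, and the groups overlap for Cox4i1.

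The low values of the chromosome 4 members stood among low values over that chromosome as a whole, a grouping that was examined after these values were seen. Uqcrh, the hinge protein of complex III, measured 12.41, 12.38 and 12.14 in Dnmt1+/+ and 11.86, 11.90 and 11.84 in Dnmt1-/- MEFs. It was lower on every Dnmt1-/- array but missed the threshold at -0.44 ± 0.15 (SE; limma adjusted p = 0.082). It was called lower with no background correction (adjusted p = 0.024), the authors' processed values (0.041), no detection filter (0.040) and array weights (0.020). Over the 538 tested genes of chromosome 4 the median difference was -0.46, and 143 fell (26.6%) while 26 rose. Over tested genes of the other chromosomes the median was -0.04 and 7.15% fell. Medians of the other 18 autosomes ranged from -0.21 to 0.15, with 3.04% to 11.2% of their genes falling.

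The shift ran along the length of chromosome 4. When its tested genes were put in order and cut into 4 stretches with about as many genes each, the medians were -0.42, -0.42, -0.54 and -0.48. Around each member, the 5 tested genes on either side had a median of -0.17 at Ndufaf4, -0.33 at Ndufb6, -0.55 at Uqcrh and -0.53 at Sdhb. Uqcrh thus lay near the median of its chromosome, Ndufb6 and Sdhb near the lower quartile (-0.71), and Ndufaf4 below it. Ndufaf6, the other member on chromosome 4 and also a complex I assembly factor, was above background on no array. Apart from chromosome 4, 1 of 70 tested members fell, and their median difference was 0.003.

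**Figure D3:**
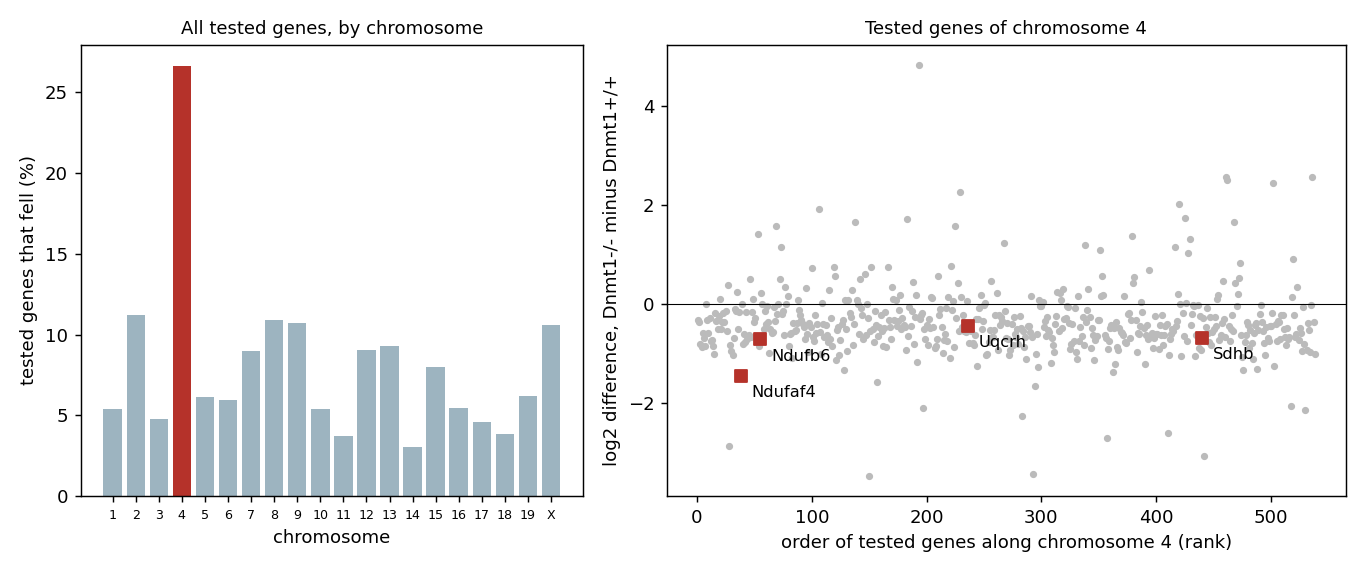
Left, percentage of tested genes that fell (y axis) on each chromosome (x axis), with chromosome 4 in red at 26.6%. Right, log2 difference (y axis) of the 538 tested genes of chromosome 4 in their order along it (x axis, rank), with the 4 members as red squares among mostly negative grey points.

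Complex I, the entry point for electrons from NADH, had a median difference of -0.03 over its 41 tested genes, 39 of which passed the test in neither direction. Its core subunits carry out the electron transfer. The 5 tested, Ndufs3, Ndufs7, Ndufs8, Ndufv1 (the NADH-binding subunit) and Ndufv2, lay between -0.19 and 0.20. Among the 28 tested accessory subunits 1 fell, and 20 differed by less than 0.2 in size. The X-linked accessory subunits Ndufa1 and Ndufb11 differed by 0.07 ± 0.15 and 0.48 ± 0.16 (SE), with an adjusted p of 0.077 for Ndufb11. Ndufa4, named for complex I but found with complex IV, differed by -0.09 ± 0.15 (SE). By its name it was counted here with complex I and not with complex IV.

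Ndufv3, an accessory subunit beside the NADH site, had the largest positive difference of all members. It measured 10.18, 10.45 and 10.96 in Dnmt1+/+ and 11.47, 11.12 and 11.17 in Dnmt1-/- MEFs. The groups did not overlap, but the Dnmt1+/+ arrays were spread over 0.40 (SD), and the difference of 0.72 ± 0.23 (SE) missed the threshold (limma adjusted p = 0.060). Its other 2 tested probes differed by 0.66 and 0.26, also without passing. Without Dnmt1+/+ replicate 3, its highest Dnmt1+/+ array, Ndufv3 was called higher (0.94, adjusted p = 0.023), as it was with the authors' processed values (0.71, adjusted p = 0.031) and with array weights (0.70, adjusted p = 0.016).

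The complex I assembly factors are proteins that help to build the complex without remaining in it. Over the 7 tested, the median size of the difference was 0.42, against 0.14 over the accessory and 0.18 over the core subunits of complex I and 0.33 over all tested genes, and no test of this was run. Ndufaf4 fell. Ndufaf5, which hydroxylates Ndufs7, and Ndufaf2, a relative of Ndufa12, were at -0.41 ± 0.15 and -0.44 ± 0.20 (SE), while Ndufaf7, a methyltransferase, and Ndufaf3 were at 0.46 ± 0.18 and 0.42 ± 0.19 (SE), none past the threshold. With array weights Ndufaf2 and Ndufaf5 were called lower and Ndufaf3 and Ndufaf7 higher. Ndufaf5 was also called lower with no background correction and with no detection filter. The probes of the 7 tested assembly factors were also dimmer, with a median level of 8.55 against 11.2 for the accessory subunits. Ndufaf3 was above background on 1 of 3 Dnmt1+/+ and 3 of 3 Dnmt1-/- arrays. The Ndufs5 pseudogene Ndufs5-ps differed by -0.25 ± 0.16 (SE), and whether its probe also reads Ndufs5 RNA was not tested.

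In complex III, which passes electrons from ubiquinol to cytochrome c, the median over 6 tested genes was -0.13. Outside Uqcrq and Uqcrh the differences ran from -0.21 for Uqcrc2 to 0.13 for Uqcrc1, both of them large core proteins without a redox group. The Rieske iron-sulfur protein Uqcrfs1 was above background on no array by either of its 2 probes.

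Complex IV, where oxygen is reduced, showed 0 calls among 9 tested genes and a median of -0.001. Cox5a had the lowest difference. It measured 12.14, 12.22 and 11.98 in Dnmt1+/+ and 11.71, 11.55 and 11.75 in Dnmt1-/- MEFs, lower on every Dnmt1-/- array by a mean of 0.45, with a limma adjusted p of 0.083. The same 4 alternatives that called Uqcrh also called Cox5a (adjusted p = 0.022 to 0.045). Cox7a2l, which links complexes III and IV, had the highest at 0.20 ± 0.16 (SE). Cox4i1, the general isoform of subunit 4, read 12.62, 12.71 and 12.62 in Dnmt1+/+ and 12.74, 12.59 and 12.39 in Dnmt1-/- MEFs, and the groups overlapped.

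The 7 tissue-restricted isoforms of complex IV gave no testable level in either group. Cox4i2 (lung), Cox8b (muscle and brown fat), and Cox6b2, Cox7b2 and Cox8c (testis) were above background on no array. Of the heart and skeletal muscle isoforms, Cox6a2 was above background on 1 Dnmt1+/+ array and Cox7a1 on 1 Dnmt1-/- array. The promoters of the 4 isoforms with a RefSeq window held 2 to 10 CpG (median 8.5) and 0 matches to either motif, where tested members held a median of 20 CpG. At this sensitivity no isoform was read above background on more than 1 array of hypomethylated cells.

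In complex V the median over 15 tested genes was 0.03, and 0 passed the test. In the catalytic head, the alpha, beta, gamma, delta and epsilon subunits Atp5a1, Atp5b, Atp5c1, Atp5d and Atp5e lay between -0.34 and 0.17. Both tested genes for the ring subunit c, which share their mature protein, differed in sign, with Atp5g2 at 0.47 ± 0.16 and Atp5g3 at -0.29 ± 0.15 (SE). Atp5g2 measured 10.82, 10.67 and 10.73 in Dnmt1+/+ and 11.43, 11.12 and 11.09 in Dnmt1-/- MEFs and was the highest of the complex (limma adjusted p = 0.080). It was called higher with no background correction (0.033), the authors' processed values (0.025) and array weights (0.032). Atp5g3 was called lower with no background correction and with the authors' processed values. Atp5c1 was called lower with no background correction and with no detection filter, and Atp5l with no background correction.

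Atp5k, subunit e of complex V, was the lowest. It read 5.77, 5.98 and 5.35 in Dnmt1+/+ and 5.25, 4.79 and 4.98 in Dnmt1-/- MEFs, above background on 3 and on 1 of the arrays, a difference of -0.69 ± 0.21 (SE; limma adjusted p = 0.057). It was called lower without Dnmt1+/+ replicate 3 (-0.86, adjusted p = 0.033), without Dnmt1-/- replicate 1 (-0.76, adjusted p = 0.042) and with array weights (-0.90, adjusted p = 0.0057). The difference shrank to -0.20 with no background correction (adjusted p = 0.14), -0.28 with the authors' processed values (0.10) and -0.44 with median scaling (0.18). Atp5pb, subunit b of the stator, gave probes that disagreed. The 2 bright ones differed by -0.08 and -0.04. By contrast, a dim one designed on a cDNA clone was above background on 3 Dnmt1+/+ and 0 Dnmt1-/- arrays. It was at least 1.15-fold lower (limma adjusted p = 0.032 over probes). That probe, among the 7 member probes that fell, passed the filter only through the Dnmt1+/+ arrays, so its call could only be a fall. Of the 23 members with more than 1 tested probe, 17 had all probes on the same side of 0, with a median gap between probes of 0.14.

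Most members were measured closely enough to bound a change. The 95% confidence interval of the difference lay within 2-fold in both directions for 68 of 74 members (91.9%), against 66.8% of all tested genes, and 47 members (63.5%) differed by less than 0.2 in size, against 32.5%. The spread between replicates was smaller too, with a median SD of 0.10 in Dnmt1+/+ and 0.13 in Dnmt1-/- MEFs, against 0.19 and 0.24 over all genes. Member probes were brighter, with a median level of 11.1 against 7.73, and the part of brightness in these shares was not tested. The medians of complexes I, II, IV and V took either sign under the other ways of scaling the arrays, whereas that of complex III stayed between -0.26 and -0.07 in all alternatives. The complex III median rests on 6 genes, among them Uqcrq, which fell, and Uqcrh of chromosome 4. It was not taken without them. As processed here, 2 members differed 2-fold or more, Ndufaf4 and Uqcrq, but neither did in every alternative.

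**Figure D4:**
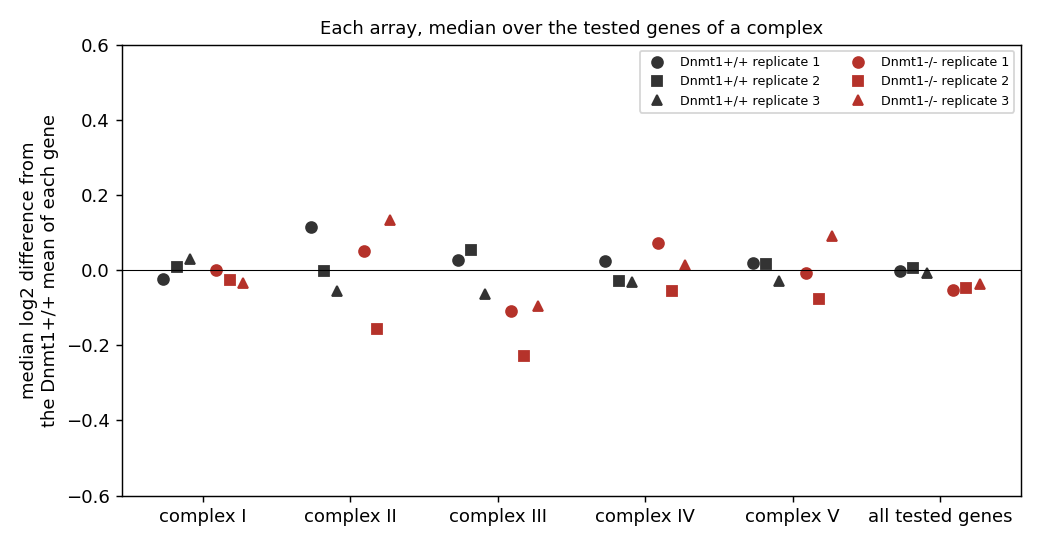
Median over the tested genes of each complex, and over all tested genes, of the log2 difference from each gene's Dnmt1+/+ mean (y axis), with 1 symbol per array. The arrays of both groups lie within 0.25 of 0 in every complex, and the Dnmt1-/- arrays lie below the Dnmt1+/+ arrays in complex III.

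The 13 members that were not tested include catalytic subunits. Ndufs1, the largest core subunit of complex I, Sdha, the flavoprotein of complex II, and Uqcrfs1 gave no signal above background, as did Ndufaf6 and the 5 isoforms named above. Ndufb4 and Atp5md were above background on 1 and 2 arrays. How much of their RNA the cells held was therefore not measured.

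The remaining genes of oxidative metabolism were read from lists. For comparison, 9.99% of all tested genes rose and 8.35% fell, and the calls in each list were close to or below these shares. Of the 8 subunits encoded in the mitochondrial genome and paired with a probe, 7 were tested, 0 passed, and the median difference was 0.10. The most extreme was ATP6 at 0.43 ± 0.25 (SE), with overlapping groups, and CYTB, the complex III subunit of that genome, was at 0.10 ± 0.15 (SE). Among 27 tested assembly factors with other names, 2 rose, Coa3 (1.64-fold) and Cox14 (1.47-fold), both early factors of complex IV assembly. In the same list 2 fell, Sdhaf1 (1.80-fold lower), which helps to put iron-sulfur clusters into Sdhb, and Ecsit (1.66-fold lower), a complex I factor.

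Of 12 tested electron carriers and related genes 1 fell, Coq4 of ubiquinone synthesis (1.58-fold lower), and cytochrome c itself, Cycs, was at -0.52 ± 0.35 (SE) with overlapping groups. In the tricarboxylic acid cycle, which feeds the chain, 11 genes were tested. Mdh2, malate dehydrogenase, fell 1.83-fold (limma adjusted p = 0.0065) and Ogdh, of the 2-oxoglutarate dehydrogenase complex, rose 1.58-fold (adjusted p = 0.049). Of 71 tested mitochondrial ribosomal proteins 2 rose, Mrpl36 and Mrpl14, and 3 fell, Mrpl37 and Mrpl50, both encoded on chromosome 4, and Mrps31. The 5 tested transport genes (carriers and porins) gave 0 calls.

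The regulators of mitochondrial biogenesis had the lowest median of these lists, -0.33 over 13 tested genes, 11 of them below 0 and 1 past the threshold. Over all genes tested 4807 of 8716 were below 0, and the 1 call is close to the share of all genes that fell (8.35%). Ppargc1b, a coactivator of nuclear genes of the chain, was above background on 3 Dnmt1+/+ and 0 Dnmt1-/- arrays and was at least 1.5-fold lower (limma adjusted p = 0.0076). It passed the detection filter only through the Dnmt1+/+ arrays, where it was higher, so this call could only have been a fall. Its relative Pprc1 was at -1.07 ± 0.34 (SE; adjusted p = 0.065), again with the lowest value, 8.05, on Dnmt1-/- replicate 1. Nrf1, whose site stood in 23.6% of member promoters, was at -0.32 ± 0.24 (SE), and Tfam, which packages mitochondrial DNA, at -0.07 ± 0.18 (SE). The median of the members was -0.01 and that of all tested genes -0.05.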

How the data were processed

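Total RNA of 3 Dnmt1+/+ and 3 Dnmt1-/- MEF samples was hybridised to Illumina BeadChips. The authors deposited, per probe and array, a raw intensity on a linear scale with a detection p-value, and a table of intensity values that the authors processed with lumi (version not given in the sources used here) by background subtraction, variance stabilization and robust spline normalization. These processed values are on a linear scale and were used only as an alternative.

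Raw intensity was background-corrected, given an offset of 16, quantile normalized and log2 transformed by neqc (limma 3.58.1, R 4.3.3). The 15795 probes that passed the detection filter were fitted with lmFit and eBayes by group alone, and tests were two-sided. Benjamini-Hochberg adjustment ran over probes, or over the 8716 genes, each read by its brightest tested probe. Where all arrays of a group were below background, a fold is given as "at least": the mean of the brighter group was set against a floor, the mean over the dim arrays of the probe's signal or the lowest detected signal, whichever was higher. The number of arrays limits the precision.

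Members and lists were chosen with earlier results of these data known. Named in full were members that were called, the highest and lowest of each complex and those above background in 1 group only, and in other lists up to 3 called genes. Uqcrh, Cox4i1, core subunits and the remaining genes named with values were chosen after their values were seen. In the annotation 34885 probes had 1 gene symbol, 18 had several and 10378 lacked one, and all 87 members matched RefSeq (GRCm38.p6), from which chromosomes, gene order and promoters were taken. The fit was tested on simulated data. Alternatives covered normalization, background correction, the detection filter, the probe for a gene, array weights, a replicate block and leaving out arrays.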

Additional observations from a re-analysis of the deposited data

How the results depend on the processing

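Uqcrq and Dnmt1 kept their direction under all 17 alternatives, and the 4 chromosome 4 members were lower in each. The alternative without both dimmer arrays (Dnmt1-/- replicates 2 and 3) leaves 1 Dnmt1-/- array, so no calls are given for it. In all others the calls of Uqcrq and Dnmt1 held. Member genes that fell numbered 4 in the reported analysis, 10 with no background correction, 7 with the authors' processed values and 7 with no detection filter. They numbered 9 with array weights and 1 to 5 when single arrays were left out. Members that rose numbered 0, and 1, 2 and 4 with no background correction, processed values and array weights, and 0 to 1 with single arrays left out. Member probes that fell (7) numbered 14 with array weights, 2 with the replicate block and 1 to 9 without single arrays. Member probes that rose (0) numbered 1 with no background correction, 2 with processed values, 4 with array weights and 0 to 1 without single arrays. All genes risen and fallen (871 and 728) numbered 498 and 443 when detected on all 6 arrays, 1376 and 1459 with array weights, and 484 to 880 and 300 to 718 without single arrays. The cause was not tested.

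Medians near 0 have no settled sign. With median scaling the medians were -0.15 (complex I), -0.26 (III), -0.063 (IV), -0.048 (V) and -0.13 (all members), and with cyclic loess 0.018 (I), 0.10 (IV), 0.12 (V) and 0.060 (all members). Complex I was at -0.070 with array weights and 0.0013 without both dimmer arrays. With no detection filter complex III was at -0.20 and IV at 0.049, and IV was at 0.078 without both dimmer arrays. Leaving out single arrays gave -0.068 to -0.0026 (I), -0.048 to 0.065 (V) and -0.045 to -0.00025 (all members). Sdhc turned to -0.00069 and Uqcrc1 to -0.010 with median scaling, and Uqcrc1 to -0.10 without both dimmer arrays. With single arrays left out, the limma adjusted p ranged from 0.023 to 0.14 for Ndufaf4 and from 0.020 to 0.088 for Ndufb6. It ranged from 0.016 to 0.069 for Sdhb and from 0.0030 to 0.021 for Uqcrq. Besides single arrays, the call of Ndufaf4 was lost with no detection filter (0.13) and with the replicate block (0.071).

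Replicate numbers do not pair the samples as far as the sources say. Deviations of same-numbered samples correlated at -0.23, 0.33 and -0.14, and 1 of 3 Dnmt1-/- samples correlated best with its own number. With the replicate block 657 genes rose and 440 fell, and Ndufb6, Sdhb and Uqcrq were the 3 members called. Dim probes limit 13 members to no test, and 3 arrays per group limit the rest.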
